A study of Mus musculus with 48 samples.

Results

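The stretch described here is chromosome 11 from 9 to 10 Mb (build mm9), with Abca13 placed near 9.09 to 9.59 Mb, and it holds 26 of the 114043 merged peaks of the series. It was chosen by measured values: earlier results of these data had shown a peak there with a strong loss in both comparisons of the study. The comparisons, called CMV and CGRP after the vectors explained below, chose the members, and their fold changes are therefore given as a description and support nothing by themselves. The next merged peak before the border at 9 Mb was centred at 8.974 Mb, and had a log2 fold change of -1.17 (SE 0.74) in the CMV and -1.98 (SE 0.70) in the CGRP comparison of the authors' deposited table. Just inside, the peak at 9.017 Mb had -0.64 (SE 0.37) and -0.65 (SE 0.32) in the authors' deposited table. The last peak inside was at 9.917 Mb, and the next merged peak beyond the border at 10 Mb came only at 16.127 Mb.

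Abca13 encodes a very large membrane protein of the ABCA subfamily of ATP-binding cassette transporters, whose members use ATP to move lipids across membranes. In the lung the best known member of the subfamily is Abca3, which loads surfactant lipids into the lamellar bodies of alveolar type II cells. ATAC-seq reads open chromatin, the state of promoters and enhancers that are bound by transcription factors, as sites where the Tn5 transposase can insert adapters. A change at such a site is a change in accessibility and not a measurement of Abca13 RNA or protein.

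All tumors came from mice of genotype Trp53-/-;Rb1-/-;p130-/-;R26mG, in which Cre deleted these 3 tumor suppressors, a model of small cell lung cancer. Adenovirus carried Cre into the lung, driven either by the CMV promoter, which is active in many cell types (30 libraries), or by the promoter of CGRP, a neuroendocrine peptide (18 libraries). The CMV comparison set 8 libraries with Nfib amplification against 7 without, and the CGRP comparison set 7 liver metastases against 11 lung tumors. The labels call the amplified CMV libraries hyperaccessible and the libraries of the other 3 groups hypoaccessible, and 1 CGRP lung tumor is labelled as Nfib-amplified. A further 15 CMV libraries, labelled as low in enrichment, enter only a pool of libraries in which summits were called. In part, tissue cannot be told apart from amplification in the CMV groups, since 6 of the 8 amplified libraries were metastases (5 of liver, 1 of a lymph node) while the 7 not amplified were lung tumors. Of the amplified CMV libraries 2 were of preparation batch 1 and 6 of batch 3, and of those not amplified 2 and 5. Among the 2 not amplified libraries of batch 1, 1 has a description that does not name the comparison. Whether it entered the authors' fit is thus not certain. Batch moved with the CGRP groups in part: all 7 liver metastases and 7 of the lung tumors were of batch 2, and 4 lung tumors were of batch 3. The part of the batch in these results was not tested. Libraries may share animals, in which case they are not independent, and whether the authors' fit allowed for this was not given. The tables hold the authors' fitted values over libraries, so the level of a peak in each library, its overlap between groups and the depth per library are unknown here.

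The genes on either side give the setting. In the order of the RefSeq annotation of another build (GRCm38.p6), the genes nearest before Abca13 are Hus1, which encodes part of a DNA damage checkpoint clamp, Sun3, a nuclear envelope protein gene, Gm11992, and Upp1, which encodes uridine phosphorylase. After Abca13 come Vwc2, which encodes a secreted antagonist of bone morphogenetic proteins, and Zpbp, a sperm gene. No annotation of mm9 was used here, so no peak is assigned to a gene beyond the Abca13 span given above, and the other Abca genes were not analysed here.

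The Abca13 promoter is shown because it is the known regulatory sequence of the gene at the centre of the stretch. Its 250 bases before the start site, from RefSeq on GRCm38.p6 (chr11:9191692-9191941, plus strand, coordinates that do not apply to mm9), were searched for the nuclear factor I half-site TTGGC, on both strands, since Nfib encodes a factor of that family, and for the TATA-like run TATATAA on the strand of the gene. Capitals mark the matches.
Abca13 promoter: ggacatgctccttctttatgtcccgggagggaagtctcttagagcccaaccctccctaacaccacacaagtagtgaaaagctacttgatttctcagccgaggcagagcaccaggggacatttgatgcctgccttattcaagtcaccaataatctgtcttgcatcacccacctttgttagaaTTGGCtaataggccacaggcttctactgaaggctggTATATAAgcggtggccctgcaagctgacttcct
The half-site occurs once and starts 69 bases before the start site, and 41.5% of 32851 promoters of this length hold it on either strand. The TATA-like run also occurs once, 33 bases before the start site, and is held by 2.05% of these promoters. GC content was 49.6%, against a median of 52.4% over all promoters. These matches describe the letters only, and the sequences of the peaks themselves were not analysed here. In mm9 no merged peak lay between those at 9.037 and 9.200 Mb, so accessibility at the start of the span, near 9.09 Mb, was in neither comparison.

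Only a few sites of the stretch were lowered in both comparisons. A set of 3 peaks had very large losses in both models, a set of 5 was more accessible in Nfib-amplified CMV tumors, and in the cluster of 6 peaks before the span 1 was lowered, in CMV tumors, by less than 1 log2 unit. In the authors' deposited table for CMV tumors, 6 of 26 peaks were lowered and 5 raised at an adjusted p under 0.05, where 12.2% and 34.3% of all peaks tested were. The balance depends on the scale: with CMV values centred on the median of all peaks (0.60) the counts were 12 lowered and 3 raised, and the second deposited test, against a fold limit, gave 3 and 2. In the CGRP comparison of the authors' deposited table, 7 of 24 peaks with an adjusted p were lowered and 0 raised (15 lowered and 0 raised at an unadjusted p under 0.05, DESeq2), against 0.779% and 0.0752% of all peaks. The label of a locus lost in both comparisons thus fits 3 of the 24 peaks tested in both (12.5%), against 0.364% of all peaks tested in both. Since the stretch was chosen on these comparisons, nothing is read from the excess.

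**Figure D1:**
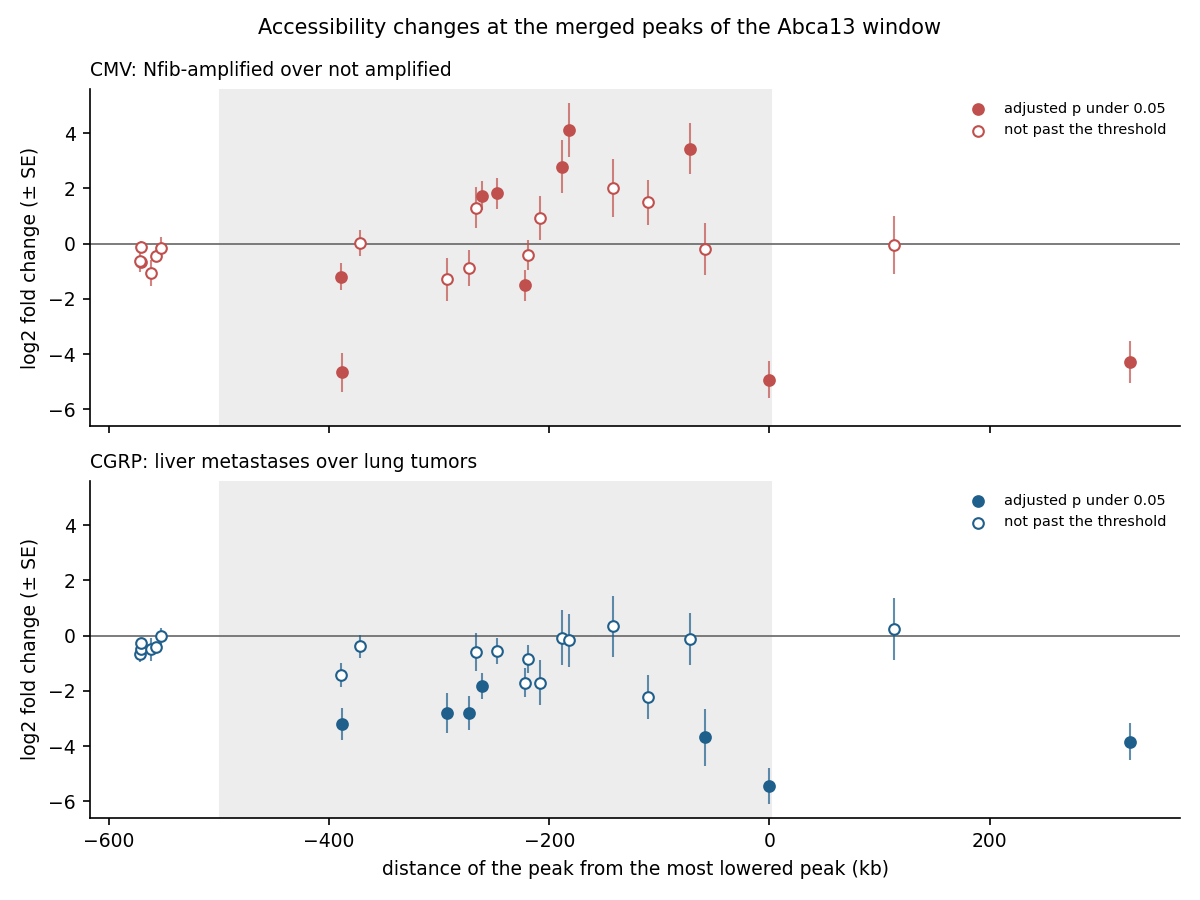
Log2 fold change with its SE (vertical bars) of each of the 26 merged peaks, by distance in kb from the most lowered peak, for the CMV comparison (top) and the CGRP comparison (bottom). The grey band is the Abca13 span, filled points are past the threshold, and the 3 peaks lowered in both lie below -3 in each panel, with 1 further such point, at -3.68, in the CGRP panel.

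The strongest loss was at the far end of the span, in the peak from 9588882 to 9589382 on chromosome 11 (mm9), centred at 9.589 Mb. The authors' deposited table held a log2 change of -4.92 (SE 0.68, adjusted p = 1.40e-10, DESeq2) for CMV tumors, a 30.4-fold lower accessibility in Nfib-amplified tumors. In CGRP liver metastases the authors' deposited table held a log2 change of -5.44 (SE 0.65, adjusted p = 7.26e-12), or 43.5-fold lower than in lung tumors. Its mean normalised count, an average over libraries, was 42.7, and the median over all peaks was 21.2. The CMV value minus the CGRP value was 0.52 (SE 0.94). The centre lies just inside the end of the span.

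Another site of the same kind lay in the first part of the span. The peak from 9200935 to 9201435, centred at 9.201 Mb, had -4.66 (SE 0.71, adjusted p = 8.10e-09) for CMV tumors and -3.21 (SE 0.57, adjusted p = 3.95e-05) in the CGRP comparison of the authors' deposited table. Its accessibility was thus 25.3-fold lower in amplified CMV tumors and 9.27-fold lower in CGRP liver metastases in the authors' deposited table. The peak next to it, from 9199524 to 9200024, moved less. There the authors' deposited table held a log2 change of -1.20 (SE 0.49, adjusted p = 0.0336) for CMV tumors, the member nearest to the threshold among those past it, and -1.42 (SE 0.43, adjusted p = 0.0816) in the CGRP comparison, the nearest of those that missed it. Adjacent peaks thus had changes of unlike size in both models.

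The third site lay outside the Abca13 span, in the sparse stretch after it. The peak from 9916716 to 9917216, centred at 9.917 Mb, had -4.28 (SE 0.76, adjusted p = 7.55e-07) for CMV tumors and -3.84 (SE 0.66, adjusted p = 1.44e-05) in the CGRP comparison of the authors' deposited table. That is 19.4-fold and 14.3-fold lower accessibility, at a mean count of 16.5. It was the last merged peak before a gap of 6.21 Mb, the widest on the chromosome. These 3 peaks, and no other of the stretch, were also lowered in both comparisons by the second deposited test, taken here to be against a log2 change of 0.5 in size. Over the series, 0.0325% of peaks passed it in both. Between the first and the last of the 3 lay 16 merged peaks that were not lowered in both.

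Between these sites, some peaks in the middle of Abca13 were raised in the CMV comparison. All 5 of them lay in a run of 11 consecutive peaks from 9.323 to 9.517 Mb, a stretch picked after its values were seen. Of the 11, 9 had a log2 fold change above 0 in the authors' deposited table for CMV tumors, with a median of 1.74, while 10 were below 0 in the CGRP comparison, with a median of -0.61. Gains were common in CMV tumors: over all peaks of the series 34.3% were raised, 33.8% were below 0 and the CMV median was 0.60, so nothing particular to the run is read from these counts. The run also held 1 peak lowered in CMV tumors, described further on. The largest gain was at 9407136 to 9407636, with 4.11 (SE 0.99, adjusted p = 2.39e-04) according to the authors' deposited table for CMV tumors, a 17.3-fold higher accessibility in amplified tumors, and -0.17 (SE 0.96) in the CGRP comparison. Next in the authors' deposited table came 9516677 to 9517177 at 3.44 (SE 0.93, adjusted p = 0.00104) and 9400403 to 9400903 at 2.79 (SE 0.96, adjusted p = 0.0105). Their CGRP values in the authors' deposited table were -0.14 (SE 0.94) and -0.08 (SE 1.00). With SEs of this size, a moderate CGRP change at these sites was not detectable.

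The remaining pair of raised peaks was smaller in effect. The peak from 9341225 to 9341725 had 1.82 (SE 0.56, adjusted p = 0.00399) for CMV tumors and -0.55 (SE 0.48) in the CGRP comparison of the authors' deposited table. The peak from 9327394 to 9327894 was called in opposite directions. The authors' deposited table held a log2 change of 1.74 (SE 0.52, adjusted p = 0.00325) for amplified CMV tumors and -1.82 (SE 0.48, adjusted p = 0.0263) for CGRP liver metastases. These values lie 3.55 apart (SE 0.71). Of all peaks tested in both, 0.0790% were raised in the CMV and lowered in the CGRP comparison, and this was the 1 such peak of the stretch. With a mean count of 75.8 it was among the stronger peaks of the span.

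Further peaks fell in 1 model. In the CGRP comparison of the authors' deposited table these were 9296416 to 9296916 at -2.80 (SE 0.73, adjusted p = 0.0216), 9316212 to 9316712 at -2.80 (SE 0.61, adjusted p = 0.00244) and 9530013 to 9530513 at -3.68 (SE 1.03, adjusted p = 0.0432). The last of these was the CGRP call nearest to the threshold. In the authors' deposited table for CMV tumors these 3 peaks had -1.29 (SE 0.78), -0.87 (SE 0.65) and -0.19 (SE 0.93), none past the threshold. In the authors' deposited table for CMV tumors, besides the peak at 9.200 Mb, 9367124 to 9367624 had -1.51 (SE 0.57, adjusted p = 0.0215), with -1.70 (SE 0.52, adjusted p = 0.0873) in the CGRP comparison. The third peak past the threshold in the CMV comparison alone, 9018328 to 9018828, fell by 0.67 (SE 0.16, adjusted p = 2.60e-04) according to the authors' deposited table. Whether a call in 1 model and not in the other is a difference between the models was not tested.

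**Figure D2:**
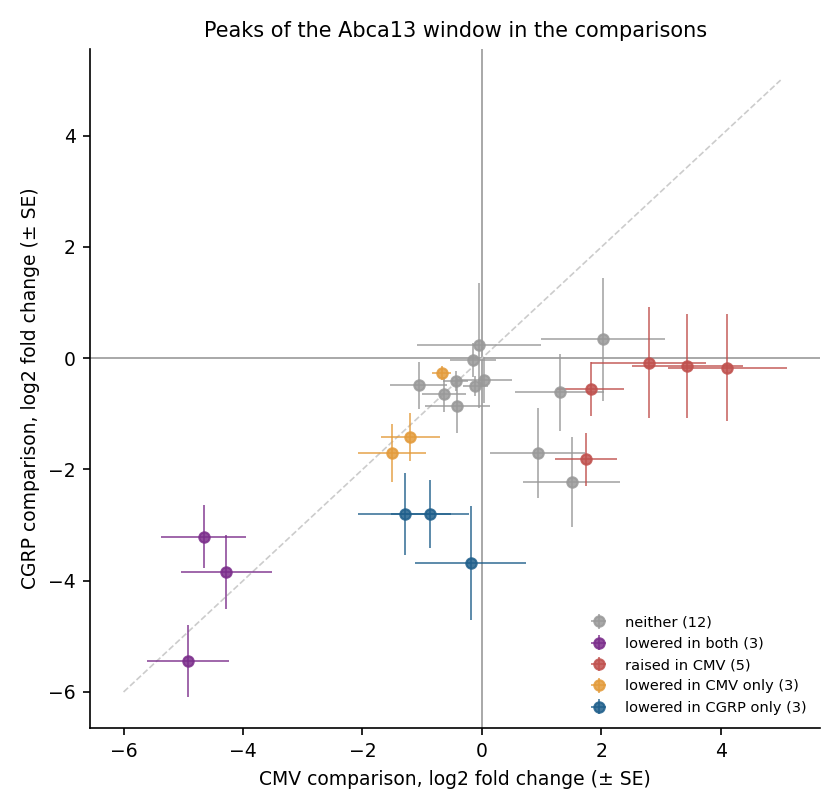
Log2 fold change of each of the 26 peaks in the CMV comparison (horizontal) and the CGRP comparison (vertical), with SEs as bars, coloured by the authors' calls, and with a dashed line of equal values. Among the 26, 3 peaks sit at the lower left, and the 5 peaks raised in CMV tumors sit at the right, from -1.82 to -0.08 on the vertical axis.

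The strongest peaks of the stretch did not carry the large changes. The highest mean counts were 228 at 9031701 to 9032201, 209 at 9017694 to 9018194 and 162 at 9369367 to 9369867. In the authors' deposited table for CMV tumors they had -0.44 (SE 0.21), -0.11 (SE 0.21) and -0.41 (SE 0.55), and in the CGRP comparison -0.41 (SE 0.18), -0.50 (SE 0.18) and -0.85 (SE 0.50), none past the threshold. The first and second belong to the cluster before the span, whose 6 peaks were below 0 in both comparisons of the authors' deposited table, with medians of -0.54 and -0.45. Among them, the peak from 9026676 to 9027176 had -1.06 (SE 0.48, adjusted p = 0.0544) according to the authors' deposited table for CMV tumors, the nearest miss.

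At the other end, the weakest peaks could show little. The peaks at 9.447 and 9.702 Mb had mean counts of 2.46 and 1.67 and no adjusted p in the CGRP comparison, and are the 2 that reduce 26 to 24. The 5 members not yet named were at 9.037, 9.218, 9.323, 9.380 and 9.479 Mb, none past the threshold in either comparison. Their log2 fold changes in the authors' deposited table ran from -0.15 to 1.5 in the CMV and from -2.22 to -0.03 in the CGRP comparison. In all, 14 of the 26 peaks were called in at least 1 comparison and 12 in neither.

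By sign, 15 of the 26 peaks were below 0 in both comparisons of the authors' deposited table, 9 were above 0 in the CMV and below 0 in the CGRP comparison, 1 was the reverse, and 1 was above 0 in both. All 9 of the mixed peaks lay in the span. There, the 18 peaks had a median of 0.48 in the CMV comparison (quartiles -1.11 and 1.80) and -1.56 in the CGRP comparison (quartiles -2.66 and -0.43) of the authors' deposited table. The medians of the whole stretch were -0.17 and -0.63 in the authors' deposited table, where all peaks of the series had 0.60 and 0.01 and chromosome 11 had -0.05 and 0.09. The CMV value of the stretch moved with the setting, to -0.54 with a mean count of at least 20, -0.41 as a weighted mean and -0.77 when centred on the median of all peaks. Pearson's r between the log2 fold changes was 0.68 over the 26 peaks, which share libraries and neighbors and are not replicates. Over the peaks of the flank before the stretch, described next, r was 0.34. The stretch was chosen for a strong loss in both comparisons, and its 3 peaks lowered in both enter the value of 0.68. A high r is thus in part built in by the choice, and nothing is read from it. The value without these 3 peaks was not computed.

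The flanks held no CGRP change past the threshold. From 7 to 9 Mb, 71 merged peaks, all centred at or beyond position 8099245, had log2 medians of -0.19 in the CMV and -0.21 in the CGRP comparison of the authors' deposited table. In the authors' deposited table for CMV tumors, 18 of these peaks were lowered (25.4%) and 12 raised (16.9%), shares close to those of the Abca13 stretch (23.1% and 19.2%). In the authors' deposited table for the CGRP comparison (DESeq2), 0 of 68 flank peaks with an adjusted p were called, 9 were lowered and 0 raised at an unadjusted p under 0.05, and the lowest value was -1.98. The median of the stretch minus that of the flank was 0.02 in the CMV and -0.42 in the CGRP comparison. The CMV difference has no settled direction, being -0.33 with a mean count of at least 20, -0.21 with weighted means and 0.67 for the Abca13 span alone. Flank peaks had a higher median mean count (38.2 against 21.8) and a lower median SE in the CGRP comparison (0.36 against 0.59), and the part of this in the counts was not tested. From 10 to 11.4 Mb there were 0 merged peaks, so the far side gave no comparison.

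The summit lists show where each pool of libraries had open sites, whether or not they entered the comparisons. The authors merged libraries before calling summits, into a CMV pool (19 libraries, 15 of them low in enrichment), a CGRP pool (14, with 7 lung tumors and 7 liver metastases) and a mixed pool (15, with 6 amplified and 5 not amplified CMV libraries and 4 CGRP lung tumors). Within the Abca13 span, the CMV pool had 43 summits, the mixed pool 26 and the CGRP pool 14. The CMV-to-CGRP ratio of summits was 3.07 in the span, 0.903 in the near flank, 5.35 from 10 to 11.4 Mb and 1.46 over the whole lists, which hold 251512 CMV-pool, 206478 mixed-pool and 172434 CGRP-pool summits. For the stretch from 9 to 10 Mb the ratio was 2.2. With the 100000 best summits of each pool, this stretch had 16 CMV-pool and 16 CGRP-pool summits, so its excess was not seen in lists of equal length. From 10 to 11.4 Mb such lists still gave 23 CMV-pool and 6 CGRP-pool summits. The span alone was not run with them. Of the 66 CMV-pool summits from 9 to 10 Mb, 25 (37.9%, exact 95% interval 26.2% to 50.7%) had a CGRP-pool summit at a distance of at most 250 bp. In the near flank 83 of 112 did (74.1%, 65.0% to 81.9%). Lists of equal length gave 62.5% and 85.5%. The reverse shares were 22 of 30 CGRP-pool summits (73.3%, 54.1% to 87.7%) and 79 of 124 (63.7%, 54.6% to 72.2%). These intervals are Clopper-Pearson and cover counting error only, and each pool is without a replicate. The CMV and CGRP pools differ in vector, enrichment, Nfib amplification and batch of preparation at once, which cannot be told apart. The CMV pool holds amplified libraries, also among those low in enrichment, and the CGRP pool holds 1.

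**Figure D3:**
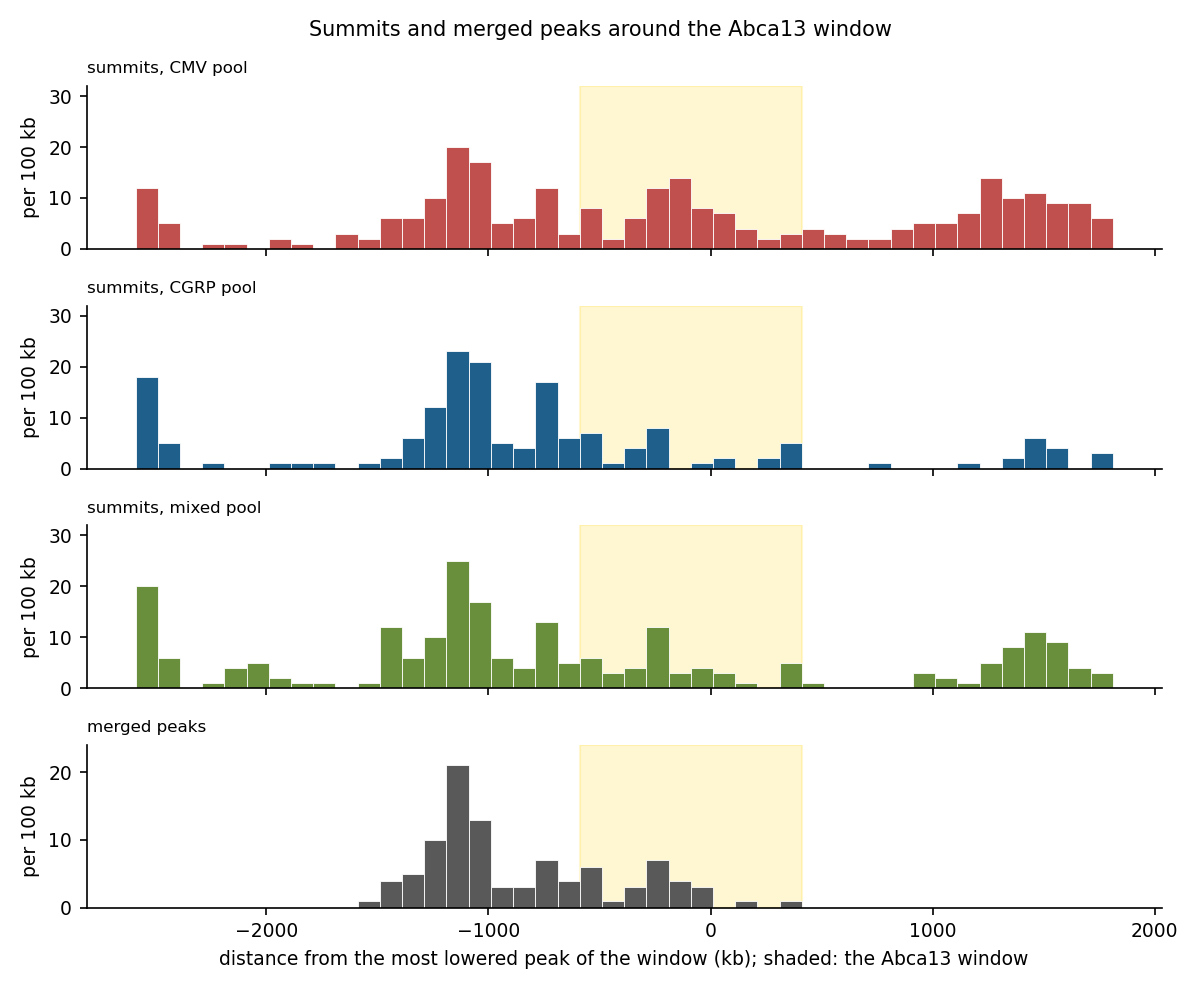
Summits of each pool and merged peaks per 100 kb from 7 to 11.4 Mb, by distance in kb from the most lowered peak, with the Abca13 stretch shaded. Summits are present in all 3 pools on the right, where the merged list has 0 peaks.

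Pool summits were counted at each kind of called peak. At the 5 peaks raised in amplified CMV tumors, the CMV pool had a summit at 5, the mixed pool at 4 and the CGRP pool at 2, those at 9.328 and 9.341 Mb. The 3 peaks lowered in both comparisons held a CGRP-pool and a mixed-pool summit each, and 2 held a CMV-pool summit. The 3 peaks lowered in the CMV comparison alone each held a summit of every pool. Of the 4 lowered in the CGRP but not in the CMV comparison, 4 held a CMV-pool, 4 a mixed-pool and 3 a CGRP-pool summit. The kinds are small and set by fold changes of the same libraries, so no difference between them is read from these counts. At 9.589 Mb the best CMV-pool score was 3.75, above 22.8% of the summits of that list, while the CGRP-pool score of 85.7 was above 72.5% and the mixed-pool score of 212 above 91.8% of theirs. At 9.201 Mb these shares were 23.2%, 49.6% and 65.3%, and at 9.917 Mb the CMV pool had no summit and the others stood above 40.1% and 70.6%. The mixed pool, which holds amplified and not amplified CMV tumors and CGRP lung tumors, ranked all 3 above the middle of its list. Peaks called in neither comparison also stood there, such as those at 9.018 and 9.032 Mb (97.2% and 99.1%), while others stood lower, as at 9.323 Mb (22.3%). Scores are the authors' own and rank summits within a list. The peak at 9.530 Mb, although lowered in CGRP liver metastases, had no CGRP-pool summit and a mixed-pool score above 16% of its list.

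Over the 26 peaks, 25 held a CMV-pool summit (96.2%), 22 a mixed-pool summit (84.6%) and 17 a CGRP-pool summit (65.4%, exact 95% interval 44.3% to 82.8%). Over all merged peaks the shares were 88.6%, 89.5% and 75%. With the 100000 best summits of each pool, 14, 16 and 14 of the 26 peaks held a CMV-pool, mixed-pool and CGRP-pool summit. No summit of the CGRP pool was found at 9 peaks that held one of the CMV pool, and 7 of these were the consecutive peaks from 9.380 Mb to 9.530 Mb, the peak at 9.407 Mb with the largest CMV gain among them. Pools contain libraries of the comparisons, so these shares are no separate evidence for the fold changes.

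**Figure D4:**
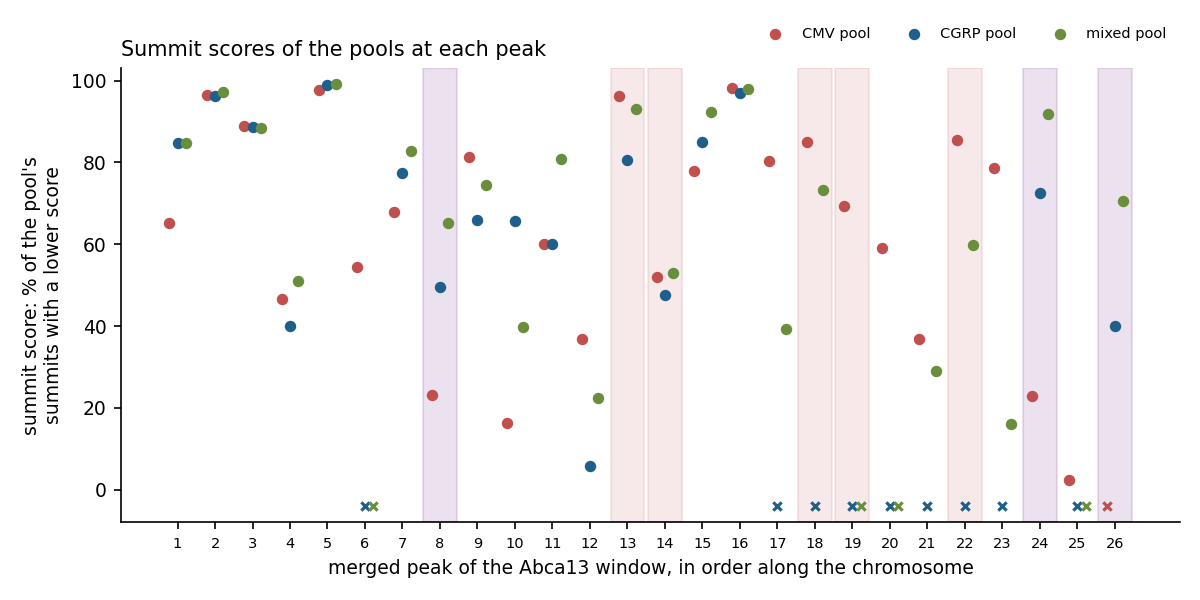
Best summit score of each pool at each of the 26 peaks in order along the chromosome, as the percent of that pool's summits with a lower score, with crosses where a pool had no summit. Purple bands mark the 3 peaks lowered in both comparisons and pink bands the 5 raised in the CMV comparison, and the CMV pool ranks at 22.8% and 23.2% or has no summit in the purple bands.

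Other megabases with the same pattern were looked for among 1865 windows of 1 Mb with at least 10 peaks, ordered by the number of peaks lowered in both comparisons, with ties broken by the lower sum of the CMV and CGRP medians. The Abca13 stretch, with 3 such peaks, was 1 of 11 windows with at least 3, and 1 window had more, chromosome 16 from 55 to 56 Mb, with 4 of 80 peaks. The remaining windows tie at 3, and the first 4 of them by the tie-break were chromosome 5 from 106 to 107 Mb (3 of 55), chromosome 10 from 74 to 75 Mb (3 of 90), chromosome 7 from 91 to 92 Mb (3 of 82) and chromosome 15 from 10 to 11 Mb (3 of 50). These 5 windows each held more peaks than the 26 of the Abca13 stretch. Among these, chromosome 16 came nearest by the count of CGRP losses, with 6 of 80 peaks lowered. Its CGRP median was -0.41 in the authors' deposited table, but its CMV median was 0.68. Chromosome 15 had 5 of 50 peaks lowered in the CGRP comparison, with medians of -0.37 in the CGRP and 0.13 in the CMV comparison. By the CGRP median alone 4 windows were lower, and no window had more than the 7 lowered CGRP peaks of the Abca13 stretch. By the CMV median 14% of windows were lower. In 1556 windows 0 peaks were lowered in both. The stretch was chosen on these same comparisons, so a high place in these orders was in part fixed in advance. Nothing is read from its place.

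**Figure D5:**
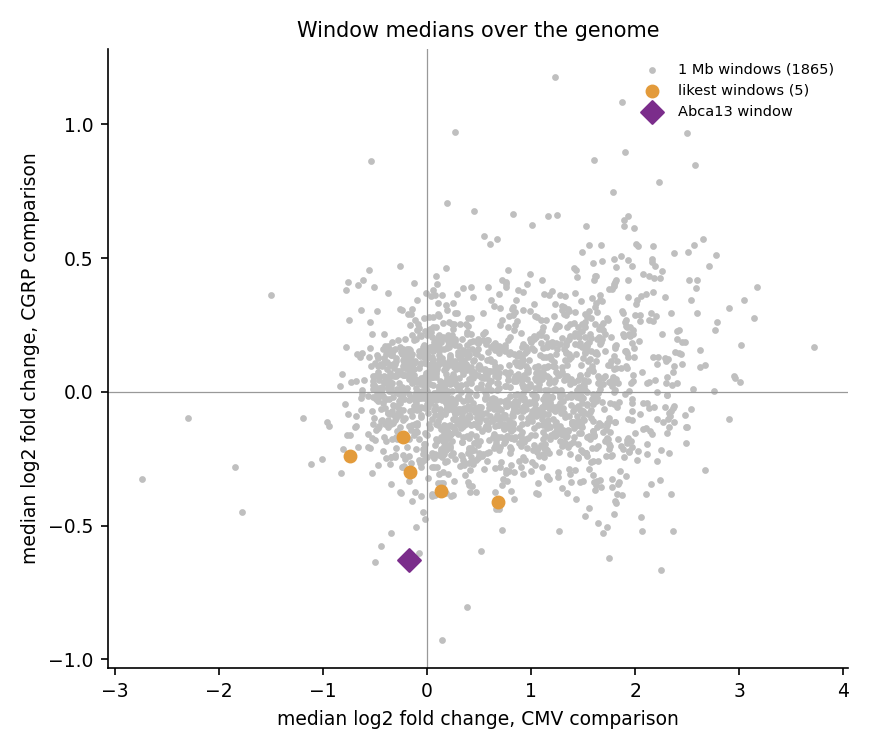
Median log2 fold change of each 1 Mb window in the CMV comparison (horizontal) and the CGRP comparison (vertical). The Abca13 window (diamond) lies at -0.17 and -0.63, below the 5 windows named above (orange), chosen by count and tie-break, on the vertical axis.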

How the data were processed

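ATAC-seq was measured in 48 libraries. The submitters' processing notes name Bowtie2, MACS2, DESeq2 and mm9. Trimming, duplicate removal, a shift for the Tn5 cut and fit covariates were not given in the sources used here. The deposited summit scores are taken to be −log10 q-values, as their smallest value fits a q of 0.05. Mean normalised counts (a signal averaged by the authors, the same in both tables), log2 fold changes, SEs, Wald scores and both kinds of p-value come from the authors, under DESeq2 column names per the file headers. Signs follow the deposited table names (amplified over not amplified, liver over lung). The description of 1 not amplified CMV library does not name the table. Whether the log2 fold changes were moderated, that is pulled in where a peak is poorly measured, was not given. The folds printed here are taken straight from them. Values per library were not used here, and no count model was fitted.

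The window, flanks and lists were chosen with earlier results of these data known. Peaks of 501 bp were assigned by their centre, called at the authors' adjusted p under 0.05, and described without further tests. Named were all called peaks, the 3 highest mean counts, those nearest to the threshold and to the borders, and the 5 likest windows. A summit belonged to a peak within 250 bp of its centre. SEs of differences between comparisons are roots of summed squares, which treats the comparisons as independent. They share no library, but their mean counts are the same, and whether the fits shared other terms was not given. These SEs are therefore approximate. The normal test of the centred alternative was run on simulated fold changes, drawn from the deposited SEs and without the centring step. That run gives no support to the centred counts. Alternatives covered thresholds, a mean count minimum of 20, centring, borders, summit distance and score. Scripts ran in Python 3.11.15 with scipy 1.17.1, pandas 2.3.3, numpy 2.4.6 and, for plots, matplotlib 3.10.9.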

Additional observations from a re-analysis of the deposited data

Results flagged for a closer look

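Summits that entered neither comparison were found on both sides of the last merged peak. From 10 to 11.4 Mb, where there was no merged peak, the CMV pool had 91 summits, the mixed pool 47 and the CGRP pool 17. From 9 to 10 Mb, 39 CMV-pool, 18 mixed-pool and 13 CGRP-pool summits lay farther than 250 bp from the centre of any merged peak.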

How the results depend on the processing

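Of 97 values under other settings, 69 were classed as the same. For counts this meant a similar size, and for shares a value inside the 95% interval. Medians had to keep their sign and move by less than the median SE of the peaks of the stretch. The CMV median of -0.77 after centring, against -0.17 as reported, is thus among the 69. With the second deposited test, the window had 3 lowered and 2 raised CMV and 3 lowered CGRP peaks. An adjusted p under 0.01 left 4 lowered CGRP peaks, and under 0.1 there were 5 lowered in both comparisons. A mean count of at least 20 left 3 raised CMV and 4 lowered CGRP peaks. With each comparison centred on its median, 12 CMV peaks were lowered and 3 raised, and 5 were lowered in both. In the Abca13 span alone the CMV median reversed to 0.48, the CGRP median was -1.56 and its difference from the flank -1.35, since the borders leave out 8 peaks. The CMV difference between window and flank reversed to -0.33 with a mean count of at least 20 and to -0.21 with weighted means; the cause was not tested. With the 100000 best summits of each pool, by construction fewer, the CMV, CGRP and mixed pools had 16, 16 and 19 summits in the window, 62, 76 and 75 in the near flank and 23, 6 and 21 from 10 to 11.4 Mb. CMV-pool summits near a CGRP-pool summit then made up 62.5% in the window and 85.5% in the near flank, and 14 of the 26 peaks held a CMV-pool summit. Within 100 bp, 52.9% of CGRP-pool summits from 10 to 11.4 Mb lay near a CMV-pool summit. The far flank alone holds no merged peak and was not run. No library could be left out, and no paired analysis was possible because the tables hold no value per library. SEs over 0.9 limit what could be called. They occurred in the weakest peaks, but also at 9.401 and 9.517 Mb (mean counts 24.4 and 21.3), both of them raised in the CMV comparison.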

Other observations

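Some open sites of the stretch had summits but no row in the comparison tables. Of 48 groups of summits away from merged peaks, 14 were found in more than 1 pool and 5 in all 3. The group at 9.929 Mb, beyond the end of Abca13 and next to the lowered peak at 9.917 Mb, had scores above 51.9% of the CGRP-pool list and 62.7% of the mixed-pool list, and above 12.9% of the CMV-pool list. That order of ranks was also seen at the 9.589 and 9.201 Mb peaks. Peaks not lowered in both comparisons had it too, among them those at 9.032, 9.200, 9.316 and 9.367 Mb. The order is thus not particular to the lowered sites. The group at 9.382 Mb, in the middle of the span, stood above 70.3% of the CMV-pool, 65.1% of the mixed-pool and 44.5% of the CGRP-pool list. Change at these groups was not tested.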
